A study of Mus musculus with 6 samples.

Results

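The enzymes that write, copy and remove DNA methylation are themselves encoded by genes whose own methylation was measured here in the mouse testis. The 9 genes were Dnmt1, Dnmt3a, Dnmt3b, Dnmt3l, Uhrf1, Tet1, Tet2, Tet3 and Tdg. The values are those of cytosine positions covered by 10 or more reads in each of 6 libraries, located between 2 kb before and 2 kb past a gene in the mouse build GRCm38. This gave 889 positions of 952515 covered in the same way over the whole genome. The 889 positions fell into 68 fixed tiles of 500 bp, and 54 of these tiles held the 3 or more positions needed for a test.

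The libraries came from right testes of 3 hemicastrated mice, which had lost the left testis before puberty, and of 3 sham-operated mice, which kept both. All 6 were males of the KM strain, a Chinese outbred stock, and grew to maturity before sampling. The labels give no exact ages, and they state neither a genetic alteration nor a pooling of animals. Reduced representation bisulfite sequencing (RRBS) was used, in which DNA is cut at CCGG by the enzyme MspI, short fragments are kept and bisulfite converts unmethylated cytosine, so that the methylation level of a position is the percentage of its reads that stay unconverted. The libraries held between 69245502 and 76619701 calls in hemicastrated mice and between 64504011 and 78630942 calls in sham-operated mice. Mitochondrial DNA, taken as nearly unmethylated, read as 0.478% to 0.573% methylated in hemicastrated mice and 0.514% to 0.617% in the sham group. This is the background beside which low levels are to be read. It is not a lower limit, since some start windows given below read less. A testis holds germ cells of several stages and somatic cells, so a level is a mean over all of their DNA, and a different share of cell types and a different level within a cell type cannot be told apart.

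DNMT3A and DNMT3B place methyl groups on unmethylated DNA, and DNMT3L, which has no catalytic activity of its own, assists them and is needed for methylation to be laid down in the male germ line before birth. DNMT1 copies methylation to the new strand after replication, and UHRF1 brings it to the half-methylated sites. TET1, TET2 and TET3 oxidise methylated cytosine to hydroxymethylcytosine and further products, and TDG is a glycosylase that cuts the last of these products out of DNA. Bisulfite sequencing reads hydroxymethylated cytosine as methylated. Several of these genes are known to have more than 1 promoter. Dnmt1 has separate first exons in somatic cells, oocytes and pachytene spermatocytes, Dnmt3a has an internal promoter for a shorter isoform, and Tet3 is transcribed from alternative starts that include or leave out a CXXC domain.

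The sequences at the starts differ in how many CpGs they hold, and RRBS reads CpGs only near the enzyme's cutting sites. RefSeq lists 16 transcription starts for the 9 genes in build GRCm38.p6, and its 300-base window, 250 bases before to 50 bases after each start, matched all 9 genes. Of these windows, 5 are shown 5′ to 3′ on the strand of the gene, because they contrast measured with unmeasured starts, and capitals mark CpG. The windows are, in this order, the distal start of Dnmt1 (chr9:20959839-20960138, minus strand), its most proximal start (chr9:20952574-20952873, minus strand), the internal start of Dnmt3a (chr12:3891494-3891793, plus strand), the first start of Dnmt3l (chr10:78042037-78042336, plus strand) and the start of Tet2 (chr3:133544341-133544640, minus strand).
Dnmt1 distal: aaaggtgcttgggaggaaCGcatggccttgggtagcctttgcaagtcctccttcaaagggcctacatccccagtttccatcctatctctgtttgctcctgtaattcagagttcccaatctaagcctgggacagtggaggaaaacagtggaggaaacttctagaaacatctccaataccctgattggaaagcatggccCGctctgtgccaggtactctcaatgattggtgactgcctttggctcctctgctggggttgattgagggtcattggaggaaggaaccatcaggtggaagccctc
Dnmt1 proximal: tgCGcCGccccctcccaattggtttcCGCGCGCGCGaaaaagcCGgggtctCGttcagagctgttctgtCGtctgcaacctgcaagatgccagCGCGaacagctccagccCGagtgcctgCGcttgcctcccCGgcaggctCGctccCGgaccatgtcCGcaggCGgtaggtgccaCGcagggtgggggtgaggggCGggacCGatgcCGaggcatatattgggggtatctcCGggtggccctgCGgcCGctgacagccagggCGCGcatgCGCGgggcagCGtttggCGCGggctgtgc
Dnmt3a internal: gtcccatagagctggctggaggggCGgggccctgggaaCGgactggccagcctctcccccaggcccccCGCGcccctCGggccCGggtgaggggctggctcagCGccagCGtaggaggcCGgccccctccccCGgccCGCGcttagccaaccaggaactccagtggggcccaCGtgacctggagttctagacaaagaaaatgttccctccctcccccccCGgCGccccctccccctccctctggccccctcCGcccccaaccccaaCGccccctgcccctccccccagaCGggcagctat
Dnmt3l first: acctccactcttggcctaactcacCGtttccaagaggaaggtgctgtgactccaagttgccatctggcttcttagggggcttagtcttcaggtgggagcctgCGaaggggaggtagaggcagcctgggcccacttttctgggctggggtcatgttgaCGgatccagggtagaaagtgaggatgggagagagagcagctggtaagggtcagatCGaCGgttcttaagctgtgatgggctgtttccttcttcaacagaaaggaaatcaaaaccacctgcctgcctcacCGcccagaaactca
Tet2: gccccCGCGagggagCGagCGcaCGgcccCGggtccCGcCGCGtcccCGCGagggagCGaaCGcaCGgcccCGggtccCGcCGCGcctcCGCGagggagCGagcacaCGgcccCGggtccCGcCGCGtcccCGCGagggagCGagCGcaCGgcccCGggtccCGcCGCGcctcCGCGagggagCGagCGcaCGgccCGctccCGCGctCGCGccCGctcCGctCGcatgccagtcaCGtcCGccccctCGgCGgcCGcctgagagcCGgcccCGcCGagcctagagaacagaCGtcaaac

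The distal Dnmt1 window holds 2 CpGs and the first Dnmt3l window 6, while the proximal Dnmt1 window holds 33, the internal Dnmt3a window 18 and the Tet2 window 57. Neither the distal Dnmt1 window nor the 3 Dnmt3l windows contain CCGG, the MspI site, which reads the same on both strands and which 52.8% of 32851 RefSeq windows contain. The other 2 Dnmt3l windows hold 4 and 3 CpGs, against a median of 7 over all windows. At the proximal Dnmt1 start 42 of the 66 CpG cytosines were measured, at the Tet2 start 45 of 114 and at the internal Dnmt3a start 3 of 36. Of the 145488 measured positions that fell inside any RefSeq window, 99.6% were CpG cytosines, and the 2 strands of a CpG are counted as 2 positions throughout.

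Every measured start window of the 9 genes was nearly unmethylated. Within 1000 bp of a start, 12 of the 16 windows held enough positions, and their levels over the 6 libraries ran from 0.451% to 1.04%, with 11 of the 12 below 1%. Over the genome, 77.0% of 14100 such windows lay below 1% and 86.7% below 5%, so low levels at starts were the usual state and not one peculiar to these genes. The 4 starts without a value were the distal start of Dnmt1 and all 3 starts of Dnmt3l. Some measured starts had no measured position in their own 300-base window, so their values come from positions further off. These were the first Uhrf1 start, the first Dnmt3a start, the more upstream of the 2 proximal Dnmt1 starts and the Tet1 start.

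**Figure D1:**
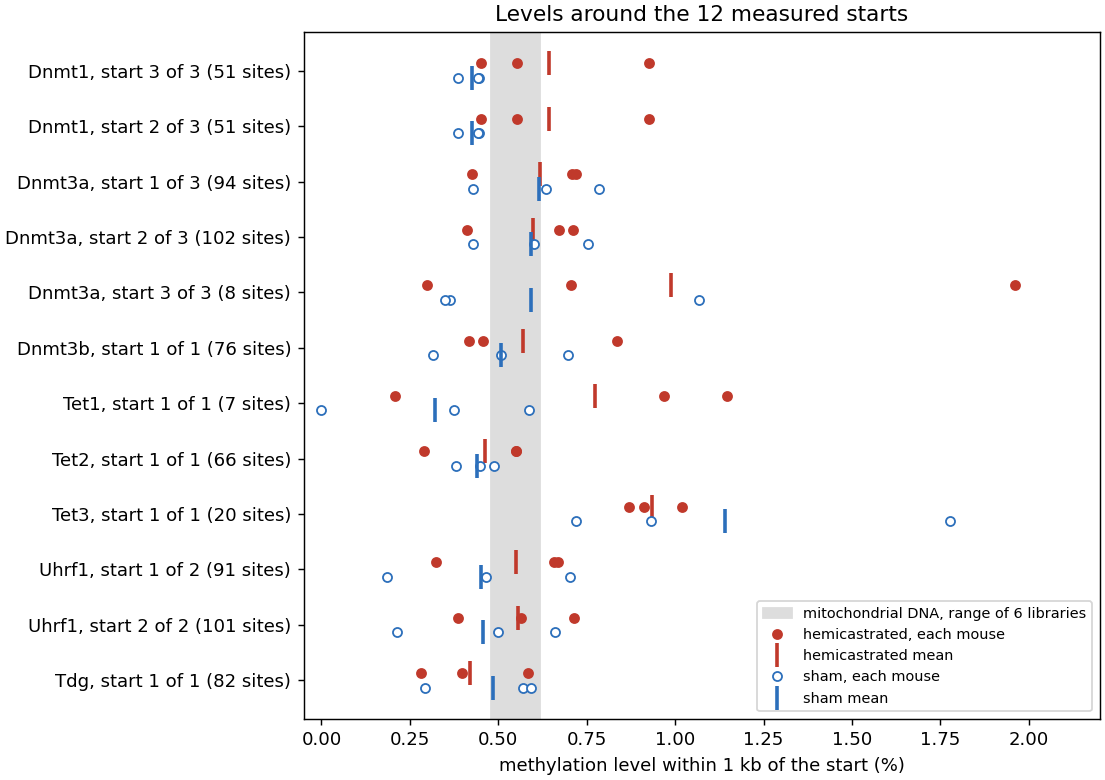
Methylation level (%) within 1000 bp of each measured listed start, 1 point per library, hemicastrated mice above sham-operated mice at each start. Points are single mice, vertical bars are group means and the grey band is the range of mitochondrial DNA. All libraries lie below 2%.

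Among the maintenance genes, the 2 proximal Dnmt1 starts lie close together and share the same 51 positions, so they are 1 measurement. The window read 0.927%, 0.552% and 0.452% in the 3 hemicastrated mice and 0.385%, 0.446% and 0.443% in the 3 sham-operated mice, with 4067 to 5200 reads per library. The hemicastrated mice were all above the sham-operated mice, with a mean gap of 0.219 points. All levels but that of hemicastrated mouse 1 were near the mitochondrial background. Without hemicastrated mouse 1, the highest, the gap was 0.0771 points. It did not pass the test (edgeR quasi-likelihood F test, adjusted p = 0.995 over 14081 windows). Uhrf1 has 2 listed starts with overlapping windows. The first averaged 0.550% ± 0.197 in hemicastrated mice and 0.451% ± 0.258 in the sham group, and the second 0.555% ± 0.165 and 0.458% ± 0.225 in the same order (SD, n = 3 each).

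The de novo genes were as low. The 2 upstream starts of Dnmt3a, again overlapping, averaged 0.618% ± 0.166 and 0.598% ± 0.163 in hemicastrated mice, against 0.616% ± 0.179 and 0.594% ± 0.162 in the sham group (SD, n = 3 each). The internal Dnmt3a start, 84.8 kb further along the gene, rested on only 8 positions and 255 to 335 reads per library. It read 1.96%, 0.704% and 0.299% in hemicastrated mice and 0.362%, 1.07% and 0.348% in sham-operated mice, so the highest value belonged to 1 hemicastrated mouse and the groups overlapped. Dnmt3b averaged 0.570% ± 0.231 in hemicastrated mice and 0.507% ± 0.191 in the sham group (SD, n = 3 each), over 76 positions.

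The starts of the demethylation genes followed the same pattern. The Tet1 window was covered by 7 positions, all in the tile at 62886001 to 62886500. The nearest of them to the start at 62887324 was 62886416. None lay in the 300-base window of that start, so the start itself was not read. The 7 positions together read 0.208%, 1.15% and 0.969% in hemicastrated mice and 0.587%, 0.375% and 0% in sham-operated mice. The 0% stands for no methylated call among 385, which allows a level of up to 0.779%, and the groups overlapped. Tet2 averaged 0.463% ± 0.149 in hemicastrated mice and 0.439% ± 0.0541 in the sham group over 66 positions (SD, n = 3 each). Tet3 averaged 0.934% ± 0.0770 in hemicastrated mice and 1.14% ± 0.559 in the sham group over 20 positions, the spread of the sham-operated group coming from 1 mouse at 1.78%. Tdg averaged 0.421% ± 0.152 in hemicastrated mice and 0.485% ± 0.168 in the sham group over 82 positions. No start of the 9 genes was called, with adjusted p of at least 0.995 by edgeR, and neither was any of the 14081 windows of the genome (0%). At an unadjusted p below 0.05, 616 windows of the genome passed (4.37%) and none of the 9 genes.

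Along the genes the level differed with the distance from a start. All 17 tiles whose centre lay within 1 kb of a listed start were below 20%, and the highest of them averaged 1.40%. Of the 51 tiles further away, 40 were above 80%, 4 lay between 20% and 80%, and 7 were below 20%. Among the 54 tiles of the 9 genes with 3 or more positions, 27 were above 80%, 4 lay between and 23 were below 20%. Over the genome, 43.8% of such tiles were above 80%, 14.1% lay between and 42.1% were below 20%.

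**Figure D2:**
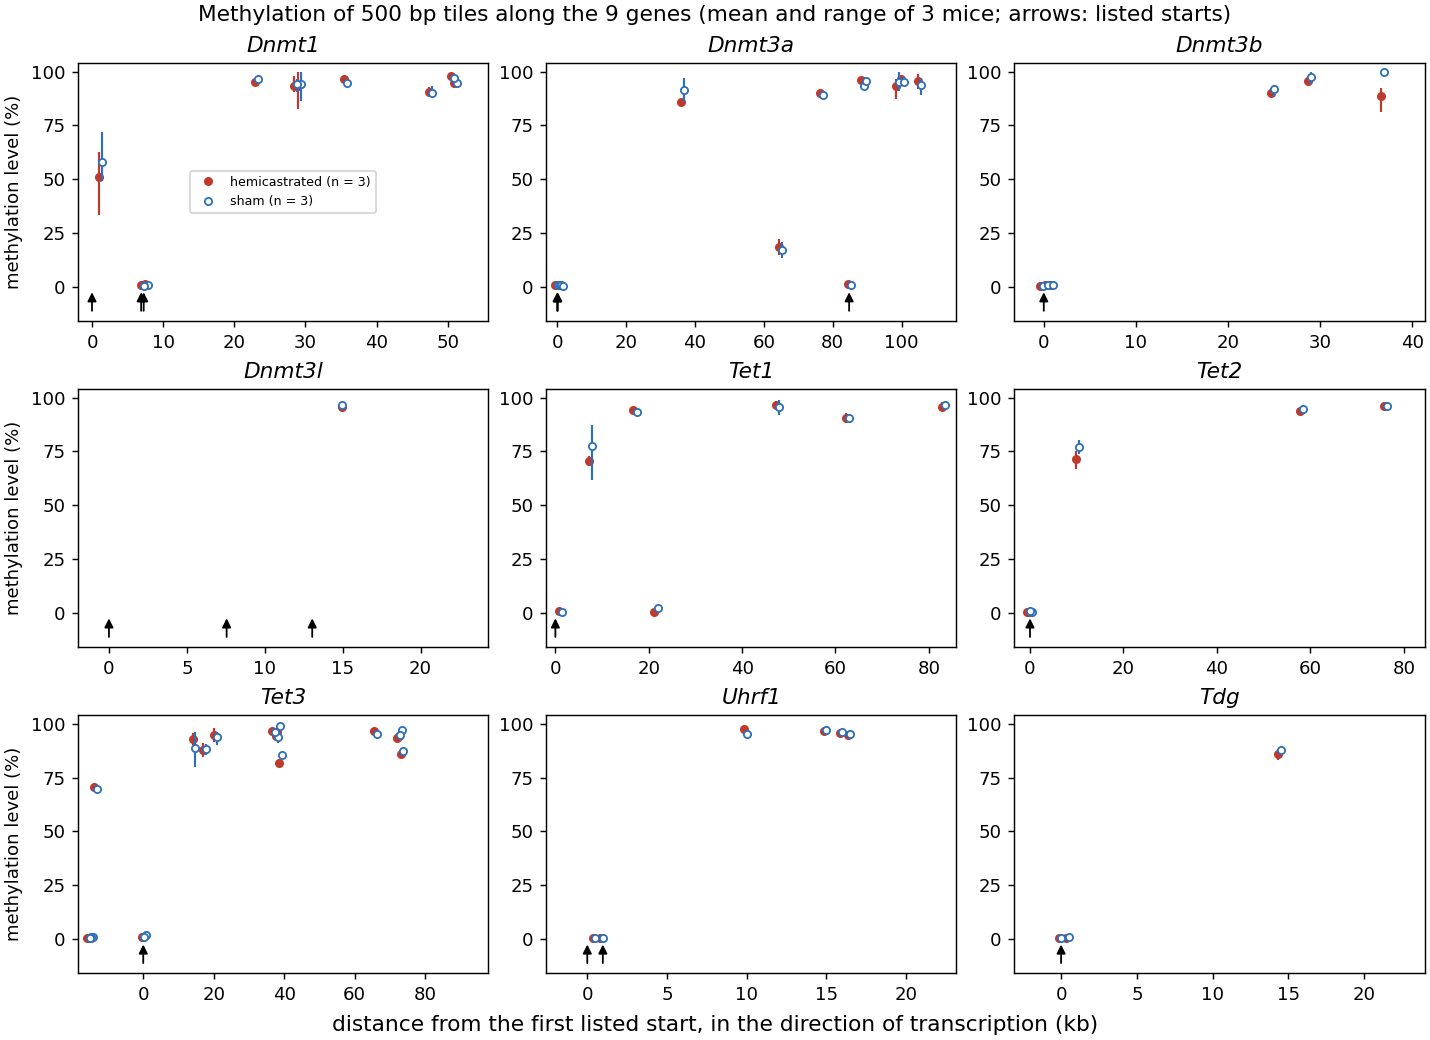
Methylation level (%) of each 500 bp tile against its distance from the first listed start, in kb along transcription, 1 panel per gene. Filled points are means of 3 hemicastrated mice and open points, set slightly to the right, means of 3 sham-operated mice; lines give the range and arrows the listed starts. Tiles lie near 0 at the starts and mostly above 80% elsewhere.

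The 40 methylated tiles averaged between 83.8% and 97.6% and were found in all 9 genes. In Dnmt1, 7 such tiles stretched from 23.1 kb to 51.1 kb past the distal start and averaged 90.3% to 97.6%. Dnmt3a had 7, at 88.8% to 96.0%, Uhrf1 had 4, at 95.1% to 97.1%, and Dnmt3b had 3, each with only 1 or 2 positions, at 91.0% to 96.6%. Tet3, the gene with the most positions (196), had 11 such tiles at 83.8% to 97.5%. Tet1 had 4, at 90.7% to 96.4%, Tet2 had 2, at 94.4% and 96.2%, and Tdg had 1, at 86.9%. Dnmt3l was represented by a single tile of 8 positions, 1.92 kb past its last listed start, which read 93.6%, 95.1% and 97.8% in hemicastrated mice and 97.8%, 95.3% and 96.4% in sham-operated mice.

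Positions within 2 kb of a start listed for any gene of the genome, not only for these 9, were then set aside. Of the 8 gene bodies with enough positions left, 6 were above 80%. That share was 61.1% over 11205 gene bodies, whose median was 87.9%. The bodies of Uhrf1 (96.0% ± 0.573 in hemicastrated mice and 96.4% ± 0.568 in the sham group) and Dnmt1 (95.2% ± 0.153 and 94.7% ± 0.709 in the same order) were the highest (SD, n = 3 each). The exceptions were Dnmt3a, at 54.9% ± 3.27 in hemicastrated mice and 57.8% ± 2.79 in the sham group, and Tet1, at 72.6% ± 2.70 and 74.9% ± 9.19 in the same order (SD, n = 3 each). Both hold tiles of low or intermediate methylation far from any listed start. In Dnmt3a the exclusion kept 20 positions. It also removed the methylated tiles at 3895501 and 3896001, which averaged 94.9% and 95.7%, and leaving these out lowered the level of the body.

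Of the 7 low tiles more than 1 kb from a listed start, 2 had their centre just past that limit. The Dnmt3a tile at 3808001 to 3808500 on chromosome 12, 1.09 kb past the nearest start, averaged 0.612% ± 0.303 in hemicastrated mice and 0.404% ± 0.0775 in the sham group, and the Tet1 tile at 62886001 to 62886500 on chromosome 10, 1.07 kb past the start, averaged 0.680% ± 0.484 and 0.250% ± 0.232 in the same order (SD, n = 3 each). This Tet1 tile holds 9 positions, including the 7 of the Tet1 start window given above, so tile and window are not separate measurements. The other 5 low tiles lay elsewhere, and 3 of them adjoined each other at the outer boundary of Tet3.

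Tet3, whose only listed start is at 83441678 on chromosome 6, had a second unmethylated stretch 14.6 kb to 15.6 kb upstream of that start. The 3 tiles from 83456001 to 83457500 hold 29, 48 and 5 positions, and the gene boundary of the annotation, at 83457208, lies in the last of them. They averaged 0.426% ± 0.132, 0.534% ± 0.120 and 0.368% ± 0.151 in hemicastrated mice and 0.583% ± 0.0302, 0.626% ± 0.311 and 0.458% ± 0.480 in the sham group (SD, n = 3 each). In sham-operated mouse 3 the last tile had no methylated call among 335, which allows up to 0.896%. In the first of these tiles all 3 hemicastrated mice were below the sham-operated mice, with a mean difference of -0.157 points, or -0.0856 without hemicastrated mouse 1, and edgeR made no call (adjusted p = 1). Further inward, at 83455001 to 83455500 and past a tile with no measured position, the level was intermediate and the mice were close to one another, at 70.8%, 72.2% and 69.2% in hemicastrated mice and 68.5%, 71.3% and 68.9% in the sham group.

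Tet1 held an unmethylated tile 21.6 kb past the start, at 62865501 to 62866000 on chromosome 10, between tiles above 80%. Its 5 positions span 150 bp. It read 0%, 0% and 0.957% in hemicastrated mice and 0.939%, 2.91% and 2.80% in sham-operated mice. The 2 values of 0% stand for no methylated call among 146 and among 88, which allow up to 2.05% and 3.41%. Group means were 0.319% ± 0.552 in hemicastrated mice and 2.22% ± 1.11 in the sham group (SD, n = 3 each), the ranges overlapped narrowly, and the difference of -1.90 points was not called (edgeR, unadjusted p = 0.0615, adjusted p = 1). The first of the 5 positions, 62865732, held most of it, with 0% in all 3 hemicastrated mice and 4.88%, 6.06% and 9.09% in sham-operated mice. It had 19 to 42 reads per library, so few that a value of 0% also allows a level of several percent.

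The last low tile lay in Dnmt3a, 64.8 kb past the first start and upstream of the internal one, at 3871501 to 3872000 on chromosome 12. It was partly methylated in every mouse, at 18.6%, 22.0% and 14.5% in hemicastrated mice and 13.1%, 17.8% and 20.7% in sham-operated mice. Its 6 positions, the paired strands of 3 CpGs within 43 bp, averaged 13.3% to 24.3%, with 478 to 681 reads per library and groups that overlapped. Together with the unmethylated tile at the internal start, this placed 2 regions of low methylation inside a gene whose other tiles over 2 kb from a listed start were at 88.8% or more.

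**Figure D3:**
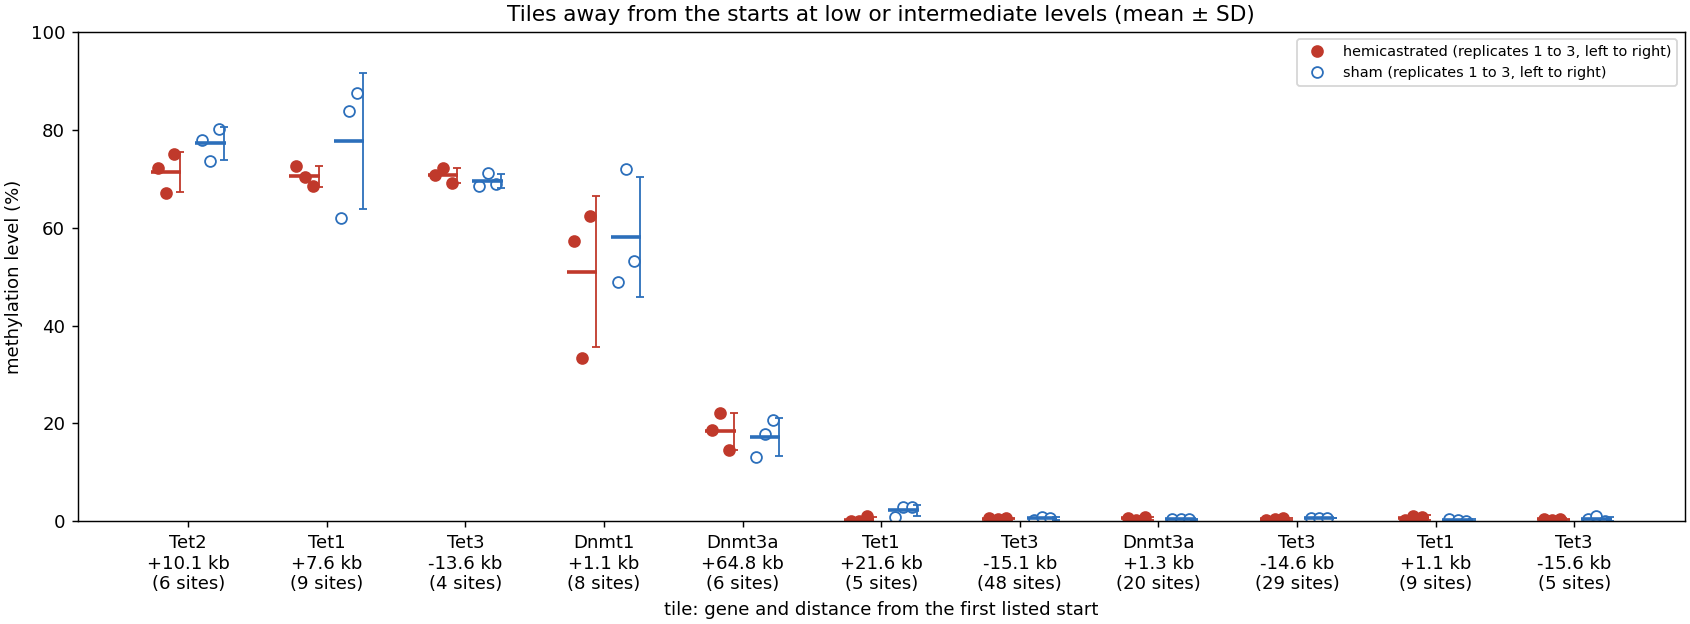
Methylation level (%) in each library at the 4 intermediate and 7 low tiles more than 1 kb from every listed start, hemicastrated mice left of sham-operated mice, with distances in kb from the first listed start. Points are single mice, horizontal bars are group means and vertical lines SDs (n = 3 each). The Dnmt1 tile 1.14 kb past the distal start has the widest range, from 33.5% to 72.0%.

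The 4 intermediate tiles differed in how much the mice varied. The widest range of any tile in the 9 genes was in Dnmt1, at 20958501 to 20959000 on chromosome 9, with its centre 1.14 kb past the distal start, the start whose own window was not measured. It read 57.2%, 33.5% and 62.5% in hemicastrated mice and 49.0%, 72.0% and 53.1% in sham-operated mice, on 491 to 751 reads per library. Hemicastrated mouse 2 was the lowest and sham-operated mouse 2 the highest, and the other 4 lay between 49.0% and 62.5%. Group means were 51.0% ± 15.5 in hemicastrated mice and 58.1% ± 12.3 in the sham group (SD, n = 3 each), so the difference of -7.01 points was smaller than the spread within either group (edgeR adjusted p = 1).

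The 8 positions of that tile are both strands of 4 CpGs within 67 bp, and they moved together. In hemicastrated mouse 2 they ran from 20.8% to 40.7%, and in sham-operated mouse 2 from 66.7% to 76.5%. At position 20958787, for example, 32 of 79 reads were methylated in hemicastrated mouse 2 (40.5%, Wilson 95% interval 30.4% to 51.5%) and 62 of 84 in sham-operated mouse 2 (73.8%, 63.5% to 82.0%). These intervals do not overlap, although they cover counting error only, since PCR copies of a molecule are counted more than once. A range of 38.6 points or more was seen in 5.16% of the 10015 tiles of the genome at 20% to 80%, whose median range was 15.0 points.

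The second widest range was in Tet1, at 62879501 to 62880000 on chromosome 10, 7.57 kb past the start. Hemicastrated mice lay close together, at 72.7%, 70.3% and 68.5%, while sham-operated mice were at 61.9%, 83.9% and 87.5%, on both sides of them. The 9 positions, spread over 187 bp, ranged from 54.4% to 71.9% in sham-operated mouse 1 and from 72.7% to 91.7% in sham-operated mouse 3. Means were 70.5% ± 2.14 in hemicastrated mice and 77.8% ± 13.9 in the sham group (SD, n = 3 each), with edgeR adjusted p = 1. A range of this size, 25.6 points, or more was seen in 20.2% of intermediate tiles.

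**Figure D4:**
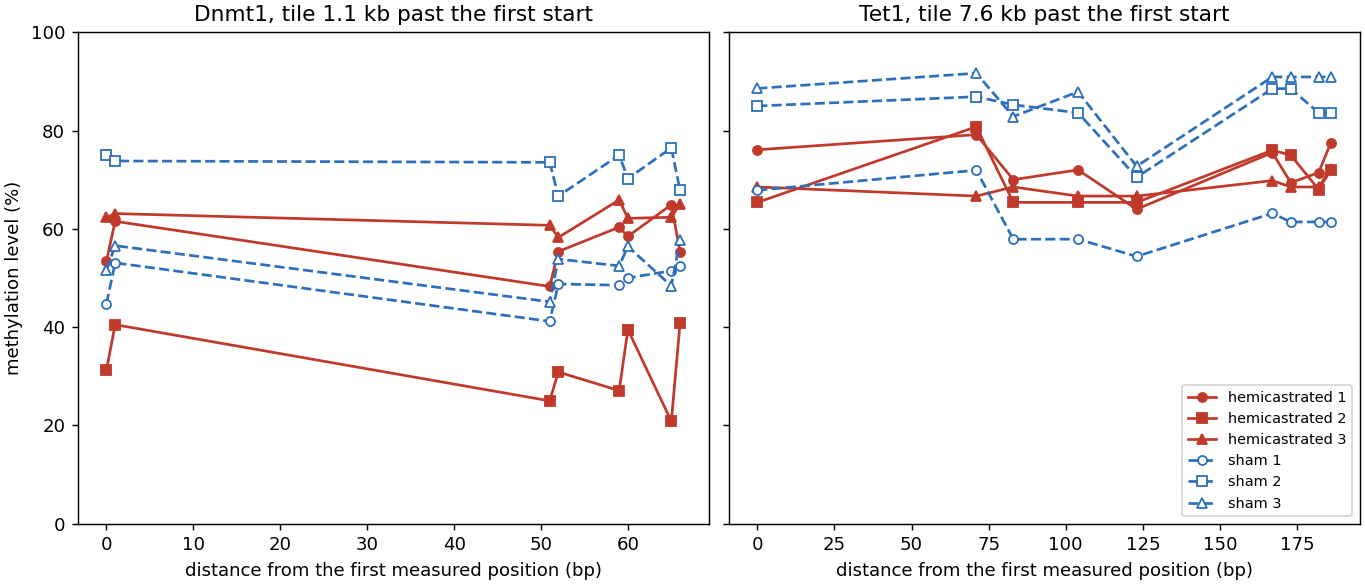
Methylation level (%) at each measured position against distance (bp) from the first measured position, in the Dnmt1 tile 1.14 kb past the distal start and the Tet1 tile 7.57 kb past the start, 1 line per library. At all 8 positions of the Dnmt1 tile, hemicastrated mouse 2 is lowest and sham-operated mouse 2 highest. Positions on 1 strand can share reads.

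In Tet2, the intermediate tile 10.1 kb past the start, at 133534001 to 133534500 on chromosome 3, was a mixture of levels within 65 bp. Its outer CpGs averaged 83.6% to 90.9%, and the CpG between them, at 133534166 and 133534167, averaged 39.7% on one strand and 53.4% on the other. The inner CpG was the lowest in every library, between 26.4% and 46.2% at the first of these positions. The tile as a whole read 72.2%, 67.0% and 75.0% in hemicastrated mice and 78.0%, 73.6% and 80.2% in sham-operated mice, groups that overlapped. Its difference of -5.83 points, or -3.64 without hemicastrated mouse 2, was not called (edgeR adjusted p = 1).

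A single position in Tet3 was also low among methylated neighbours. It was 83402537 on chromosome 6, in the tile centred 38.9 kb past the listed start. No methylated call was seen there in hemicastrated mice among 22, 22 and 34 reads, which allows up to 13.6%, 13.6% and 8.82%. In sham-operated mice it read 0% among 26 and 38 reads, which allows up to 11.5% and 7.89%, and 4.17% in mouse 3. The other positions of that tile averaged between 87.0% and 100%. The tile, at 83402501 to 83403000, averaged 81.9% ± 1.71 in hemicastrated mice and 85.7% ± 1.22 in the sham group (SD, n = 3 each). All 3 hemicastrated mice were below the sham-operated mice, and edgeR made no call (adjusted p = 1).

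Tdg had a CpG of the same kind on both strands. In its only methylated tile, 14.4 kb past the start at 82644001 to 82644500 on chromosome 10, position 82644346 read 0%, 14.3% and 0% in hemicastrated mice and 0%, 0% and 8.33% in sham-operated mice, on 13 to 37 reads. Position 82644347, the other strand, had no methylated call in any library, which allows up to 17.6% in a hemicastrated mouse and 17.6% in a sham-operated mouse. The other positions of the tile averaged 92.4% to 99.1%, so all 6 libraries shared a single low CpG within a methylated stretch. In bisulfite reads an unmethylated cytosine and a thymine in the genome look alike, and which of them these positions hold was not tested.

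Across the 54 tested tiles of the 9 genes, hemicastrated mice were higher in 28 and lower in 26. The differences ran from -7.29 to 2.64 points with a median of 0.0333, against a median of -0.0208 over 71149 tiles of the genome. None was called by edgeR, and neither was any tile of the genome (0%). At an unadjusted p below 0.05 there was 1 of 54, against 4.27% of all tiles. With limma likewise no tile, start or body of the genome was called, while 3549 tiles, 653 starts and 543 bodies passed an unadjusted p below 0.05. Groups did not overlap in 3 tiles with hemicastrated mice above and 3 with hemicastrated mice below, against 4.56% and 4.94% of all tiles (9.5% in either direction). The 3 above were the tiles of the proximal Dnmt1 starts and of the Tet3 start (0.872% ± 0.0813 in hemicastrated mice and 0.615% ± 0.128 in the sham group; SD, n = 3 each) and a Dnmt3a tile given next. The 3 below were the Tet3 tiles at 83402501 and 83456001 given above and a Dnmt1 tile 23.1 kb past the distal start (93.8%, 95.7% and 95.4% in hemicastrated mice and 96.9%, 96.6% and 96.2% in sham-operated mice).

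**Figure D5:**
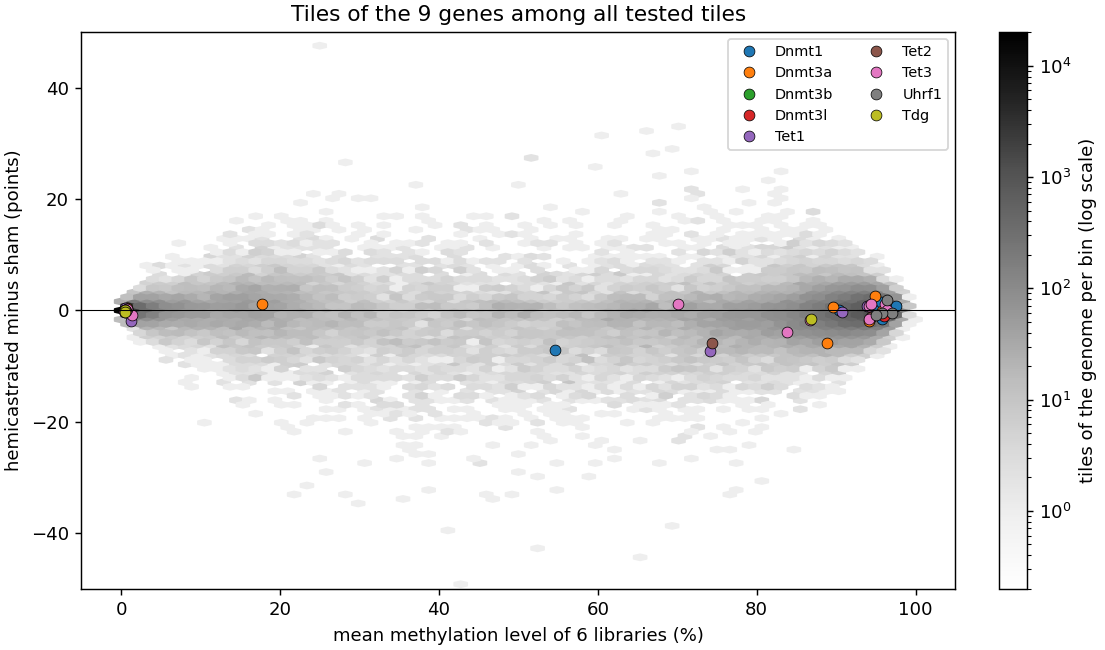
Difference in methylation level, hemicastrated minus sham-operated (points), against the mean level of 6 libraries (%), for tiles of the 9 genes (coloured by gene) over all tested tiles of the genome (grey bins, log scale). The 54 tiles lie between -7.29 and 2.64 points.

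The tile that passed the unadjusted threshold lay in Dnmt3a, at 3895501 to 3896000 on chromosome 12, 4.01 kb past the internal start. It read 97.0%, 96.8% and 94.7% in hemicastrated mice and 93.8%, 93.7% and 93.1% in sham-operated mice, a difference of 2.64 points between high levels (edgeR, unadjusted p = 0.0445, adjusted p = 1). The adjoining tile did not share it, at 95.7% ± 1.47 in hemicastrated mice and 95.8% ± 0.513 in the sham group (SD, n = 3 each). The next smallest p in that direction were in Dnmt1, in the tile 35.6 kb past the distal start (96.4% ± 1.02 in hemicastrated mice and 94.9% ± 0.632 in the sham group) and in the tile of the proximal starts (0.632% ± 0.259 and 0.420% ± 0.0210 in the same order; SD, n = 3 each).

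Among lower tiles, the smallest p belonged to the unmethylated Tet1 tile described above. It was followed by a Dnmt3a tile 36.3 kb past the first start, at 3843001 to 3843500, which read 87.0%, 84.3% and 86.4% in hemicastrated mice and 92.2%, 97.0% and 86.0% in sham-operated mice. That tile rested on 100 to 164 reads per library and 1 sham-operated mouse lay among the hemicastrated mice. A Tdg tile 0.412 kb past the start averaged 0.291% ± 0.0746 in hemicastrated mice and 0.624% ± 0.361 in the sham group (SD, n = 3 each). All 3 had an adjusted p of 1 by edgeR.

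Single positions gave no call in the 9 genes. Of the 889 positions, 744 were tested, since the other 145 had only methylated or only unmethylated reads, and hemicastrated mice were higher at 360 and lower at 381. Over the genome 706 of 814966 positions were called (0.0866%), and 2.62% passed an unadjusted p below 0.05, against 18 of the 744. That fit gave all positions 1 common spread, so the scatter of a position between animals did not enter its own test. The smallest p in the higher direction were at starts, where only a few reads were methylated. Position 3807202 on chromosome 12, at the start region of Dnmt3a, read 1.12%, 0% and 3.77% in hemicastrated mice and 0% in all 3 sham-operated mice, and position 133544429 on chromosome 3, at the start of Tet2, read 3.01%, 0% and 0.885% in hemicastrated mice and again 0% in all 3 sham-operated mice (edgeR adjusted p = 0.841 for both). Those zeros rest on 82 to 97 reads in Dnmt3a and 95 to 130 in Tet2, so they allow levels of up to 3.66% and 3.16%. In the lower direction, position 83456733 of the upstream Tet3 stretch read 0% in all 3 hemicastrated mice and 0%, 5.04% and 2.27% in sham-operated mice. Position 82629774 on chromosome 10, at the start of Tdg, read 0% in all 3 hemicastrated mice and 1.16%, 2.11% and 2.90% in sham-operated mice (edgeR adjusted p = 0.841 for both). The zeros of these 2 positions allow up to 2.91% and 4.17% in a hemicastrated mouse.

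Gene bodies, taken from boundary to boundary without 1000 bp at each end, were not called in any of the 9 genes, nor in any of 13057 genes (0%), although 450 passed an unadjusted p below 0.05 (3.45%). Tet2 was the member with the smallest p. Its body read 89.5%, 89.4% and 88.0% in hemicastrated mice and 92.4%, 90.4% and 92.5% in sham-operated mice, over 22 positions, and the groups did not overlap. Means were 89.0% ± 0.844 in hemicastrated mice and 91.8% ± 1.21 in the sham group (SD, n = 3 each; edgeR, unadjusted p = 0.0308, adjusted p = 1). Within the body, the intermediate tile differed by -5.83 points and the 2 methylated tiles by 0.337 and -1.21 points.

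The starts of 43 other genes of the methylation system were examined in the same way, and 28 of them were measured. They comprise readers of methylated DNA, repair and demethylation factors, recruiters of the methyltransferases and enzymes that supply the methyl donor. All 28 were below 5%, at 0.280% to 1.18%, with none called in either direction. In hemicastrated mice 14 were higher and 14 lower, with a median difference of 3.32e-05 points. Over the 14081 windows tested, 56.0% were higher and the median was 0.0275 points. By group, 7 of 10 readers and partners were measured (5 higher, 2 lower), 10 of 14 repair and demethylation genes (4 higher, 6 lower), 6 of 13 recruiters (3 higher, 3 lower) and 5 of 6 donor enzymes (2 higher, 3 lower). Among the readers, Zbtb4, a zinc finger protein that binds methylated CpG, had the smallest p in the higher direction, on only 6 positions. It read 0.313%, 1.46% and 1.43% in hemicastrated mice and 0.715%, 0.152% and 0.176% in the sham group (edgeR, unadjusted p = 0.0467, adjusted p = 0.995). Of the 28 starts it was the only 1 with an unadjusted p below 0.05 by edgeR, against 4.37% of windows over the genome. It was followed by Uhrf2, the paralogue of Uhrf1, at 0.912% ± 0.134 in hemicastrated mice and 0.741% ± 0.102 in the sham group (SD, n = 3 each). In the lower direction, Smug1, a uracil glycosylase measured at 9 positions, had no methylated call in any hemicastrated mouse, which allows up to 1.79%, 2.91% and 1.65%. It read 1.19%, 0.490% and 0% in sham-operated mice. Idh2, which makes the oxoglutarate that TET enzymes need, averaged 0.424% ± 0.162 in hemicastrated mice and 0.732% ± 0.164 in the sham group (SD, n = 3 each).

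The starts of cell type marker genes are given as values. They do not check the labelled tissue, since no other tissue was measured for comparison. Over the genome, 86.7% of 14100 start windows lay below 5% and 8.91% above 20%. Of 9 germ cell markers, 6 were measured, and 5 of these lay well below full methylation. Dazl, an RNA-binding protein of germ cells, averaged 10.2% ± 2.26 in hemicastrated mice and 8.93% ± 0.888 in the sham group, and Mael, which acts in piRNA silencing, 23.4% ± 7.64 and 17.9% ± 1.58 in the same order (SD, n = 3 each). Sycp3, a protein of the synaptonemal complex, averaged 19.8% ± 6.39 in hemicastrated mice and 13.6% ± 4.75 in the sham group, and Tex101, a germ cell surface protein, 11.6% ± 3.50 and 13.7% ± 5.67 in the same order (SD, n = 3 each). Tnp1, a transition protein of spermatids, rested on only 5 positions. It read 20.4%, 28.4% and 21.7% in hemicastrated mice and 13.1%, 14.3% and 8.20% in the sham group, groups that did not overlap, without being called (edgeR, unadjusted p = 0.00719, adjusted p = 0.995). Over the genome, 4.37% of start windows passed an unadjusted p below 0.05 by edgeR. Groups did not overlap in 9.5% of tiles, a share that was not counted for start windows. Prm1, a protamine, was methylated, at 87.3% ± 1.71 in hemicastrated mice and 87.9% ± 4.42 in the sham group (SD, n = 3 each). Of 4 Leydig cell markers only Insl3 was measured, at 19.3% ± 5.16 in hemicastrated mice and 24.1% ± 9.37 in the sham group (SD, n = 3 each), and no start of the Sertoli, peritubular or blood cell markers was measured.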

How the data were processed

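The authors deposited, for each library, cytosine positions with raw methylated and unmethylated read counts and a level in percent. That deposited percent equals methylated over total counts at every position. Per the labels' protocols, MspI fragments of 40 to 220 bp were bisulfite-converted (Zymo Methylation-Gold), PCR-amplified and read on an Illumina GAII. Per the submitters' processing notes, Bismark, TopHat2 2.0.11 and GRCm38 were used, without a stated role. Neither duplicate removal nor a depth filter is named in the sources used here. Files name neither strand nor context.

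Positions on chromosomes 1 to 19, X and Y with 10 or more reads in all 6 libraries were kept. Counts were summed over tiles of 500 bp, windows of 1000 bp either side of RefSeq starts (GRCm38.p6) and gene bodies, each with at least 3 positions, or taken per position. A feature's level was summed methylated over summed total counts. RefSeq gave boundaries and starts without exons, so exons and introns were not told apart. Groups were compared over the whole genome with edgeR 4.0.16 in R 4.3.3 (quasi-likelihood F test, 1 column per library, methylation by group, common dispersion), Benjamini-Hochberg adjusted at 0.05. Features with only methylated or only unmethylated reads were not tested. The code was tested on simulated data. Alternatives were limma 3.58.1 on log2 ratios with 1 added to each count, other depth minimums, windows and priors, the replicate block and leaving out each library.

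Each library is 1 mouse. The 9 genes, gene lists and rules were chosen with earlier results of these data known. Named beside the starts, bodies and internal low or intermediate tiles were the 3 tiles with the smallest p in each direction, the 3 with the widest range, the 2 positions with the smallest p in each direction and, among the other genes of the methylation system, the 2 starts with the smallest p in each direction, and 3 likeness neighbours. The Tet1 position 62865732, the Tet3 position 83402537, the low Tdg CpG, the inner Tet2 CpG and Tnp1 were singled out after their values were seen.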

Additional observations from a re-analysis of the deposited data

How the results depend on the processing

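No feature of the 9 genes was called under any setting run, whether tile, position, start or body. Over the genome, positions called numbered 706 with edgeR, 147 with limma and 446 with a robust prior, and 588 to 773 when 1 library was left out. Starts called numbered 0, but 10 with the replicate block and 0 to 1 when 1 library was left out, the 1 without sham replicate 3. Bodies called numbered 0, and 0 to 1 when 1 library was left out, the 1 without sham replicate 2. Deviations of same-numbered mice from their group means correlated at 0.0512, 0.0689 and 0.0407 across 10015 intermediate tiles, each the highest of its 3. Whether the replicate numbers mark a pairing or a batch cannot be told from such small values. The block changed no call in the 9 genes.

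Limma, the robust prior and the replicate block test the same levels and leave the difference as it was. Of 352 differences of 41 named features recomputed under the other settings, 323 kept their sign and 29, in 17 features, did not; none of these features was called, and the causes were not tested. Leaving out 1 library at a time gave differences (hemicastrated minus sham, in points) of -12.7 to 1.78 in the Dnmt1 tile at 20958501 and -0.858 to 3.13 in the Dnmt3a tile at 3871501, -0.266 to 0.0331 and -0.320 to 0.159 in the Tet3 tiles at 83456501 and 83457001. At starts it gave -0.0696 to 0.159 in Dnmt3b, -0.0190 to 0.110 in Tet2, -0.419 to 0.109 in Tet3, -0.162 to 0.00537 in Tdg, -0.0922 to 0.0972 and -0.0782 to 0.0974 at the upstream Dnmt3a starts, -0.0914 to 0.740 at the internal one, and -0.0332 to 0.225 and -0.0246 to 0.198 in Uhrf1. For bodies it gave -3.39 to 0.599 in Dnmt1, -0.546 to 0.790 in Dnmt3a, -5.43 to 0.358 in Tet1 and -1.88 to 0.510 in Tet3. With 20 reads per position the internal Dnmt3a start gave -0.324 and the Dnmt3a body 0.0308. Without 2 kb around the listed starts of all genes, a setting chosen after seeing the data, the Dnmt1 body gave 0.407. The other 24 features kept their sign whichever library was left out, but in 19 of them the difference moved by more than 1.5 times. These include bodies, at -3.98 to -0.970 in Dnmt3b, -2.18 to -0.0475 in Dnmt3l, -2.55 to -0.0862 in Uhrf1 and -2.62 to -0.0872 in Tdg, and the Tet1 tile at 62879501, at -15.2 to -2.43.

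With 3 mice a group, the spread between mice limits what intermediate tiles can show, and at starts the mitochondrial background limits what a few methylated reads can show.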

Other observations

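The starts that could not be measured at 10 reads in every library were read thinly, and all reads within 1000 bp of them, at any depth, are given here as values. Around the first Dnmt3l start, 38 of 51, 35 of 59 and 47 of 82 calls were methylated in hemicastrated mice (74.5%, 59.3% and 57.3%), and 63 of 105, 59 of 75 and 55 of 74 in sham-operated mice (60.0%, 78.7% and 74.3%). The Wilson 95% intervals of the 6 libraries lay between 46.5% and 86.4%. Around the second Dnmt3l start, 13 of 39, 1 of 2 and 18 of 48 calls were methylated in hemicastrated mice, and 8 of 31, 4 of 38 and 0 of 11 in sham-operated mice (Wilson upper bound 25.9%). The third start had 3 calls in hemicastrated mice and 5 in sham-operated mice. Around the distal Dnmt1 start, 3 of 8, 1 of 5 and 5 of 8 calls were methylated in hemicastrated mice and 6 of 8, 18 of 20 and 7 of 7 in sham-operated mice. Different libraries were read at different positions, so these values were not compared.

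The Tet1 body, taken without 1000 bp at each end, had the widest range among the bodies of the 9 genes. Over 40 positions it read 44.8%, 48.1% and 51.2% in hemicastrated mice and 42.4%, 54.0% and 52.9% in sham-operated mice. This definition keeps the unmethylated tile at 62886001 to 62886500. The means of 72.6% and 74.9% given earlier left out 2 kb around the listed starts of all genes and rested on 31 positions. Among 5449 other gene bodies with at least 20 positions, the 3 nearest to the 40-position Tet1 body over the 6 libraries, by Euclidean distance in percentage points, were Gm51805 (3.58), Tmco4 (5.08) and Pear1 (5.49).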
